A study of Mus musculus with 2 samples.

Results

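The genes described here are annotated as antisense RNA genes: they carry at least 1 transcript of the GENCODE class antisense, and no transcript of the classes protein_coding or lincRNA. Of 55536 annotated genes, 3067 met this definition, and 147 were kept because their expected counts summed over both libraries reached 100 and their symbols were not among 3 that were left out (Snhg14, Kcnq1ot1 and Tsix). The members were therefore chosen partly by their measured counts, so their levels are a description and not a finding. The libraries were total RNA, depleted of ribosomal RNA and stranded according to the name of the spike-in profile, from hippocampus of female B6CASTF1/J mice, the first-generation cross between the C57BL/6 laboratory strain and CAST. All belonged to 1 group: animals aged 25 days with no treatment named, tissue labelled as a layer of hippocampus, 300 ng of RNA per library and ERCC spike-ins added to each. Biological replicates 1 and 2 have separate biosamples but the same donor entry, and the labels do not say whether they are separate animals.

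Antisense RNAs are transcribed from the DNA strand opposite to another gene. Some start beside the promoter of that gene and run away from it (divergent transcription), others cross its exons or lie across its introns, and many remain in the nucleus. A few are known regulators, acting in cis on the gene they face or serving as hosts for small RNAs, while for most no function is known. Libraries that keep the strand are needed to tell the RNA of such a gene from that of its opposite-strand partner.

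Levels below are in TPM, a read density per length of RNA scaled to the same total in each library, as the authors deposited them. Where a pair of values is given, the first is replicate 1 and the second replicate 2. The gene tables held 34919989 and 41206890 expected counts. The hippocampal neuron markers were all present, the lowest of the 7 being Prox1 at 45.9 and 37.9 TPM. Summed interneuron markers stood at 351 and 375 TPM, astrocyte markers at 959 and 874, oligodendrocyte markers at 1689 and 1718 and microglial markers at 53.9 and 56.9. Lists for neighbouring tissue had sums of 60.7 and 58.0 for neocortex, 39.4 and 27.1 for thalamus, 26.9 and 59.2 for choroid plexus and 19.7 and 23.8 for striatum.

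The antisense class was sparsely read. Of the 3067 genes that met the definition, 1528 had 0 counts in both libraries, 893 had some but fewer than 10, and another 497 had fewer than 100. The share reaching 100 counts was 4.86%, against 26.0% of all annotated genes. Together the 147 members held 32910 and 34817 counts, which was 0.0942% and 0.0845% of each library, and their TPM summed to 658 and 576. Most members were given automatic names (124 of 147), and 17 had symbols ending in os, for opposite strand. Just under the minimum lay Rab26os with 52 and 45 counts, Gm44777 with 50 and 47 and Gm15853 with 42 and 55. The nearest members above it were Gm15941 with 70 and 31 counts, Gm48780 with 53 and 49 and Gm19522 with 53 and 49.

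Promoters of the members were richer in GC and CpG than the promoter table as a whole. The members had reached a minimum of counts and the table was not filtered by counts. The difference is therefore not shown to be a trait of antisense genes. The RefSeq promoter table (build GRCm38.p6, 250 bases before the start to 50 after it) held an entry within 100 bases of an annotated start for 58 members. Their median GC content was 62.0%, against 52.7% for all 32851 promoters, and their median ratio of observed to expected CpG dinucleotides was 0.759 against 0.384. Motifs were searched by their letters on both strands. A GC box (GGGCGG) was found in 56.9% of member promoters and 35.7% of all, a CCAAT box (CCAAT) in 43.1% and 37.4%, and a TATA box (TATAAA) in 5.17% and 13.6%. The cyclic AMP response element TGACGTCA occurred in 1.72% and 1.79%, and the NRF1 motif in 0% and 0.971%. GC boxes may overlap each other, and a match is a run of letters, not a measured binding site. Divergent members (31 with a promoter) and the other members (27) had median GC contents of 64.7% and 58.3%. The window of a divergent member can take in part of its partner's promoter. The following 6 promoters are shown because they span this range and belong to members described below. Matches to the GC, CCAAT or TATA motif on either strand are in capitals, all other bases in lower case, each read 5′ to 3′ on the strand of the antisense gene.
Tug1, chr11:3648765-3649064, minus strand: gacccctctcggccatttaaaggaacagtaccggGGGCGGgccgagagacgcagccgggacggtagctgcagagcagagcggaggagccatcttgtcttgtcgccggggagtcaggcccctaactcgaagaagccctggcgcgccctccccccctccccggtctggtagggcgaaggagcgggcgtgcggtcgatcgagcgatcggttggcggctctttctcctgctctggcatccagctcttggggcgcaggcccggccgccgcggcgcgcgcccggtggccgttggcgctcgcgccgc
Zfas1, chr2:167062684-167062983, plus strand: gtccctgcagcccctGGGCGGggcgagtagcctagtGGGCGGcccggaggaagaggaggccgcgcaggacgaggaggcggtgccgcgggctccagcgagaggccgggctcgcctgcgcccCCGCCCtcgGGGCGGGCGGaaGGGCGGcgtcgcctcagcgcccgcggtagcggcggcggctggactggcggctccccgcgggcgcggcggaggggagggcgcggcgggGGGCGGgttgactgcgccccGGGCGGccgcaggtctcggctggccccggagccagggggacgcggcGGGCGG
A830082K12Rik, chr13:78197767-78198066, plus strand: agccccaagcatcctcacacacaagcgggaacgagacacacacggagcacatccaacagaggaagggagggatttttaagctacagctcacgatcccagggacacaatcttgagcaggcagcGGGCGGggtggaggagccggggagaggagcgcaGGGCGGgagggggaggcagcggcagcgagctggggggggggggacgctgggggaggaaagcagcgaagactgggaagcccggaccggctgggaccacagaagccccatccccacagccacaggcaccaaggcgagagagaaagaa
A930005H10Rik, chr3:115888081-115888380, minus strand: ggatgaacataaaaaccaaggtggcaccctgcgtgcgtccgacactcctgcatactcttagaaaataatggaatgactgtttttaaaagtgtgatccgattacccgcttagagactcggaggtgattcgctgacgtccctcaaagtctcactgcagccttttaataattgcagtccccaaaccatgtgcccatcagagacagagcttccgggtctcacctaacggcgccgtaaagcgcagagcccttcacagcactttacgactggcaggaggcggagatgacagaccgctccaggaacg
3110056K07Rik, chr12:71015774-71016073, minus strand: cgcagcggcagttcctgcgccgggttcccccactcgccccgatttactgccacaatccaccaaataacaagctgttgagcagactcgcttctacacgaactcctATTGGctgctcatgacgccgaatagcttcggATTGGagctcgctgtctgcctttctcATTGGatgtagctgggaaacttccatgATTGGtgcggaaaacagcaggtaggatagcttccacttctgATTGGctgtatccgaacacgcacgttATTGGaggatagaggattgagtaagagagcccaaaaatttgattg
Dlx6os1, chr6:6861634-6861933, minus strand: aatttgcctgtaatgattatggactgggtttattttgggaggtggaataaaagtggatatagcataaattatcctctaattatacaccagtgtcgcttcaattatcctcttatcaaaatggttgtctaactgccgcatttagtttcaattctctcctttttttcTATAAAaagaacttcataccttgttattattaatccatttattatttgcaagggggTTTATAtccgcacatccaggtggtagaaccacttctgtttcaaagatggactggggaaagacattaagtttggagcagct

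The Zfas1 promoter had 83.0% GC and 47 CpG dinucleotides, the Tug1 promoter 71.3% and 37. That of A830082K12Rik, which faces Nr2f1, had 65.0% GC. A930005H10Rik, whose nearest start lies 17 bases from that of Dph5, had 51.7% GC and none of these motifs. In 3110056K07Rik the CCAAT motif occurred on the minus orientation (ATTGG) at 6 places. Dlx6os1 stood apart with 35.3% GC, 3 CpG dinucleotides and a TATA motif on each strand. Its RefSeq start lies 92 bases from the nearest GENCODE start.

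Levels of the members ran from 0.575 to 46.9 TPM in the mean of the libraries, with a median of 2.59. Of the 147 genes 14 reached a mean of 10 TPM, 110 lay between 1 and 10 and 23 were under 1. Read counts were unevenly spread as well, since the 3 members with the most counts held 37.0% and 37.1% of the members' counts.

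Tug1 (ENSMUSG00000056579.18, mm10 chromosome 11, 3639785 to 3649673, minus strand), a conserved long noncoding RNA that starts beside the chromatin regulator gene Morc2a, was highest at 47.6 and 46.2 TPM (mean 46.9 ± 0.933, SD, n = 2). The values of the libraries differed little, with a ratio of 0.972. B230334C09Rik (ENSMUSG00000104597.1, chromosome 3, 158067186 to 158076112), a single-exon gene of 8927 bases whose exon overlaps Lrrc40, was at 27.7 and 20.1 TPM. It had more counts than Tug1 in replicate 1, 5890 against 4425, and fewer in replicate 2, 5327 against 5425. 4933431E20Rik (ENSMUSG00000086968.8, chromosome 3, 107888850 to 107896213) followed at 24.7 and 22.7 TPM, and Zfas1 (ENSMUSG00000074578.13, chromosome 2, 167062934 to 167065862), whose introns hold box C/D small nucleolar RNAs, at 21.8 and 21. B230334C09Rik was first of these 3 in replicate 1 and last in replicate 2, while 4933431E20Rik was above Zfas1 in both. The order of 4933431E20Rik and Zfas1 was reversed in the second quantification, a further set of tables the authors deposited. There Zfas1 was at 46.6 and 46.1 TPM and 4933431E20Rik at 31.4 and 32.2, so their order is not settled. All 3 genes lay under Tug1 in each library.

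Next came members that face genes of transcription, trafficking and signalling. 2810468N07Rik, which starts 121 bases from the SOX-family transcription factor gene Sox8, was at 19.8 and 17.4 TPM. Rab10os, opposite the gene of the small GTPase Rab10 that directs vesicle traffic, was at 15.3 and 13.0. E130307A14Rik, beside the cytokine signalling adaptor gene Traf3ip2, was at 13.7 and 11.4, and A930005H10Rik, beside the diphthamide synthesis gene Dph5, at 11.0 and 12.8. 2810468N07Rik was above the other 3 in both libraries, and among those 3 each gene overlapped the next in order. A930005H10Rik alone among the 4 was higher in replicate 2 by deposited TPM, with a log2 ratio of 0.21 that was -0.05 on TMM and DESeq2 scaling, -0.25 on spike-in scaling and -0.03 in the second quantification.

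Gm11175, which lies wholly within exons of Jund, a gene of the AP-1 transcription factor family, was at 13.5 and 9.97 TPM. Gm13375, beside the GTPase-activating protein gene Arhgap21, was at 11.0 and 10.4. Tmem147os was at 12.0 and 8.73, A830082K12Rik at 12.3 and 8.33, and Gm26782, beside the telomerase-associated gene Tep1, at 11.1 and 9.51. The ranges of these 5 genes overlapped each other, so their order is not resolved. A330009N23Rik was at 9.72 and 10.8 TPM, 2310009A05Rik at 9.39 and 9.63, 6330403L08Rik, beside the platelet-derived growth factor gene Pdgfa, at 8.55 and 8.49, Sp3os at 7.93 and 8.15, and Gm37885 at 8.43 and 7.43.

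**Figure D1:**
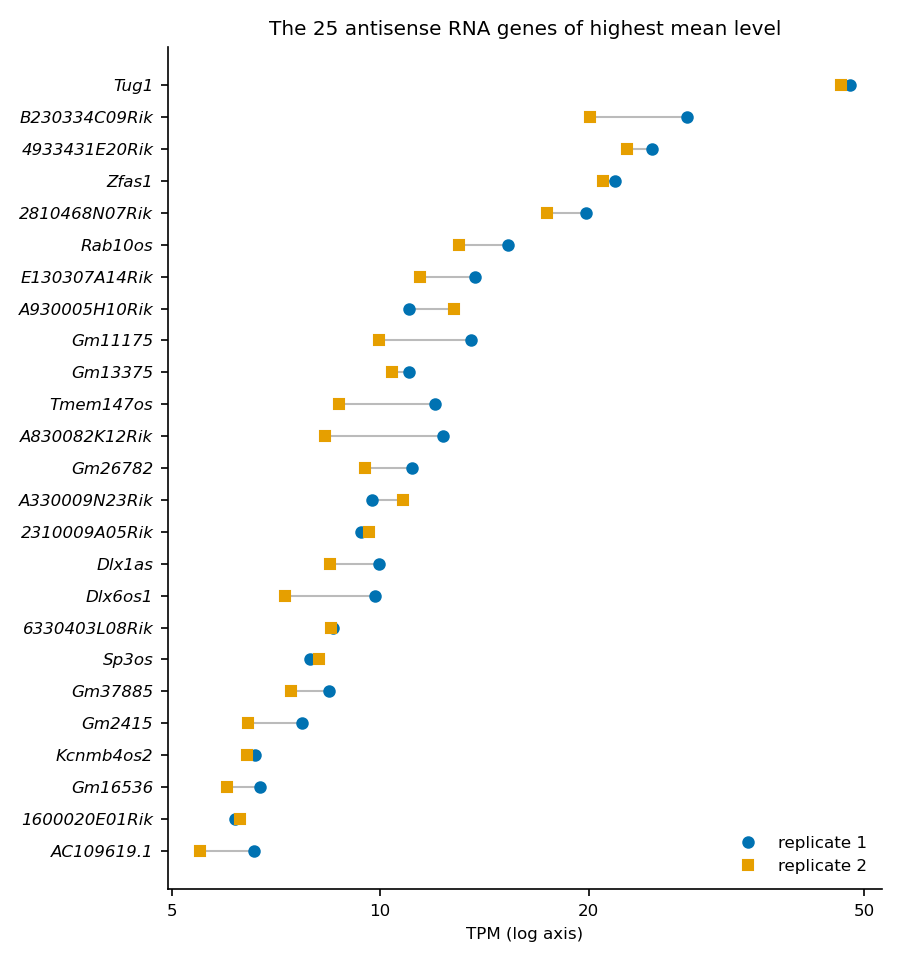
Levels in TPM (log axis) of the 25 antisense RNA genes of highest mean level, with a circle for replicate 1 and a square for replicate 2, joined by a line. Tug1 at 47.6 and 46.2 TPM lies apart from the others, and B230334C09Rik, at 27.7 and 20.1, shows a wide gap between the libraries.

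The plot of the highest levels shows how quickly the values crowd together below Tug1. Across all 147 members Pearson's r of log2 TPM between the libraries was 0.958, a description across genes that share both libraries and their depths. The levels of 72 members differed by less than 1.2-fold between libraries.

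Antisense genes named after a transcription factor of patterning form a known group in the forebrain. Dlx6os1 (also called Evf2) is a noncoding RNA of the interneuron lineage that is transcribed from the Dlx5 and Dlx6 locus, and Dlx1as runs across Dlx1. Dlx1as was at 9.97 and 8.46 TPM, above Dlx1 itself at 6.87 and 7.85. Dlx6os1 was at 9.83 and 7.29 TPM, above Dlx6 at 2.85 and 3.29. In both libraries these RNAs exceeded the homeobox gene in their name. Ratios of the coding gene to the antisense gene were 0.689 and 0.928 for Dlx1 and 0.290 and 0.451 for Dlx6. For Dlx1 in replicate 2 the gap was small, on 139 counts of Dlx1as, and its counting error was not computed. In bulk tissue, fewer cells of a type and less RNA per cell cannot be told apart, so these levels do not give the number of interneurons.

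The other members of that list faced factors with higher levels. Emx2os was at 1.49 and 1.17 TPM, against 13.8 and 10.8 for Emx2, a homeobox gene required for hippocampal development. Zeb2os was at 2.88 and 2.30 against 189 and 148 for the zinc finger gene Zeb2. Zfhx2os was at 5.44 and 3.30 against 24.2 and 15.3 for Zfhx2, and 63.0% of its exonic bases are shared with Gm20687 on the same strand, so its value is uncertain. Each of the 3 was below its partner in both libraries. A further 11 genes of the list stayed under 100 counts, among them Nkx2-2os with 27 counts, Tbx3os1 with 20 and Pax6os1 with 11. The list was drawn up with earlier results of these data known.

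Several antisense RNAs of imprinted loci are known for silencing neighbouring genes in cis. Kcnq1ot1 and Snhg14, both of this group, reached 100 counts but were left out by name, so the values here do not cover them. Airn, the RNA that silences the Igf2r cluster in cis, had 55 counts (1.03 and 0.900 TPM), and Nespas of the Gnas locus had 41 (0.60 and 0.30 TPM). Tsix, the antisense RNA of Xist, had 67. Airn, Nespas and Tsix did not reach the minimum.

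Across all 18 members named after a gene on the other strand, the named gene was higher in both libraries in 15 and lower in 3. The 3 exceptions were Dlx1as, by a small margin in replicate 2, Dlx6os1 and Brip1os. Brip1os was at 2.72 and 2.85 TPM, against 0.240 and 0.0900 for the DNA helicase gene Brip1. In the other 15 the named gene was between 1.58-fold and 110-fold higher. Prox1os was at 3.19 and 4.11 TPM while Prox1, the factor that maintains dentate granule cells, was at 45.9 and 37.9. Pcsk2os1 was at 1.66 and 1.21 against 68.3 and 64.1 for the prohormone convertase gene Pcsk2. Kcnmb4os2 was at 6.60 and 6.42 against 31.8 and 31.6 for Kcnmb4, a subunit of calcium-activated potassium channels. The largest excess was at Tomm6os, at 1.14 and 0.840 TPM against 90.7 and 92.7 for the mitochondrial import gene Tomm6. The named gene started within 1000 bases of the member in 13 of the 18 and shared exonic bases with it in 14.

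Small RNA genes lay inside 9 members on the same strand: snoRNA genes in 4, miRNA genes in 5 and an snRNA gene in Gm5089, with Gm49685 holding both a snoRNA and a miRNA gene. Snord12 and 2 further snoRNA genes lie in Zfas1, and Snord1a, Snord1b and Snord1c in 1810032O08Rik, itself at 5.28 and 4.19 TPM. All 6 were listed at 0 TPM in both libraries. Mir760 in Gm17494 was at 1.37 and 1.13 TPM, its host at 1.93 and 1.31, and Mir1900 in Gm47079 was listed at 0. The mature sequences are shown, from RefSeq, because these miRNAs lie within members, with the seed (bases 2 to 8) in capitals.
mmu-miR-760-3p (in Gm17494): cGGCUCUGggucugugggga
mmu-miR-760-5p (in Gm17494): cCCCUCAGgccaccagagcccgg
mmu-miR-1900 (in Gm47079): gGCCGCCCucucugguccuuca
No seed was shared among the 3. The tables used here hold gene and transcript values and do not measure mature small RNAs apart from their hosts.

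Each member was next placed relative to its opposite-strand partner, the gene on the other strand that overlaps it most, protein-coding genes first. Where none overlapped, the partner was the protein-coding gene on that strand with the nearest start within 1000 bases, as Arhgap21 for Gm13375. Such pairs are divergent by the definition below, so the partner rule itself set part of the divergent share. A partner was found for 145 members, and for 143 it was protein-coding. For Tmem147os, Sp3os, Dlx1as, Brip1os, Fbxl12os, Tomm6os and Phtf1os the partner was not the gene in their name. Dlx1as, for example, starts 186 bases from Dlx1 and shares 335 exonic bases with it. Its partner by the rule was Metap1d, which it overlaps only outside exons. Class and ratio to the partner thus depend on the partner rule. Pairs were called divergent where the closest starts lay on opposite strands within 1000 bases of each other, either apart or with overlapping 5′ ends. Divergent pairs made up 75 members (51.0%), pairs with overlapping exons and no such start 52 (35.4%), and pairs overlapping outside exons 18 (12.2%). Among the 2917 genes of the class under 100 counts the shares were 28.0%, 34.3% and 33.5%. Among divergent members the median distance between starts was 132 bases and 47 lay within 200. The closest starts lay apart in 38 of them and overlapped in 37. Exonic bases were shared with the partner in all of these 37 and also in 28 of the 38. Closest starts that lie apart thus do not mean that the genes do not cross. The overlap can take in most of a member, as in Gm11175, which lies wholly within exons of Jund. Members were also longer, with a median exonic length of 2929 bases against 904, and a longer gene gathers more counts at the same density, so length bears on who reached the minimum. Single-exon genes were 27 of the 147 (18.4%), against 5.45% below the minimum. Genes with 1 transcript were 52 of the 147 members and 2188 of the 2917 others. The closest starts were sought over all transcripts, so a gene with more transcripts had more chances to be called divergent.

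**Figure D2:**
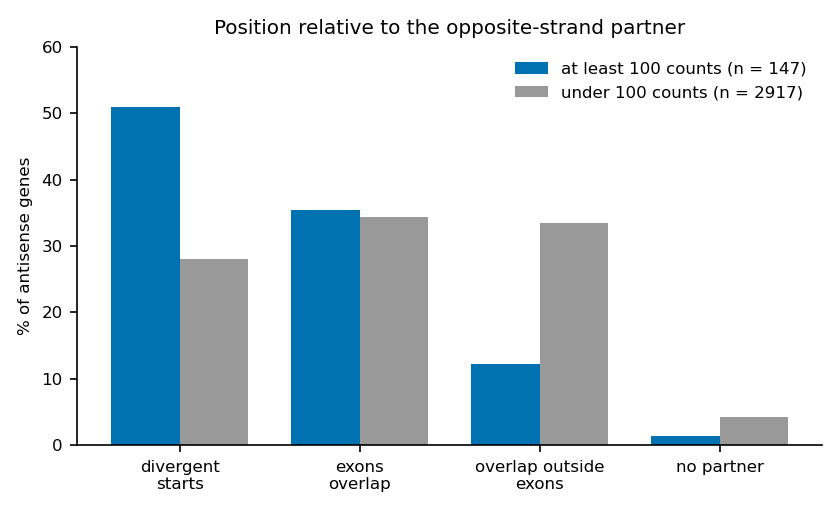
Share of antisense genes (percent, axis from 0) by position relative to the opposite-strand partner, for the 147 members (blue) and the 2917 genes of the class under 100 counts (grey). Divergent starts account for 51.0% of members and 28.0% of the others, overlap outside exons for 12.2% and 33.5%.

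The bars of position show that the classes differ in their mix before any level is compared with a partner. Levels relative to the partner also followed position. Overall 104 of the 145 members with a partner were below it in both libraries, 35 were above it in both, and 6 changed order. The median of log2((member TPM + 0.1)/(partner TPM + 0.1)) was -2.13 in replicate 1 and -2.24 in replicate 2. For divergent members the medians were -3.03 and -3.15 (-2.88 and -3.04 with starts apart, -3.08 and -3.17 with starts overlapping), for members with overlapping exons -0.95 and -1.18, and for those overlapping outside exons -0.16 and -0.66. Partners of divergent members had a median of 19.6 TPM, against 4.78 and 5.79 in the other classes, while the members' own medians were 2.47, 2.78 and 3.03 TPM. Among these genes the class medians thus differed mainly in the level of the partner. Members had reached a minimum of counts, and partners were not filtered by counts. The members' own levels were therefore partly set by how they were chosen. The contrast between member and partner medians is not shown to be a trait of the position classes. Partners at least 10-fold higher in both libraries faced 46 members, 30 of them divergent.

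**Figure D3:**
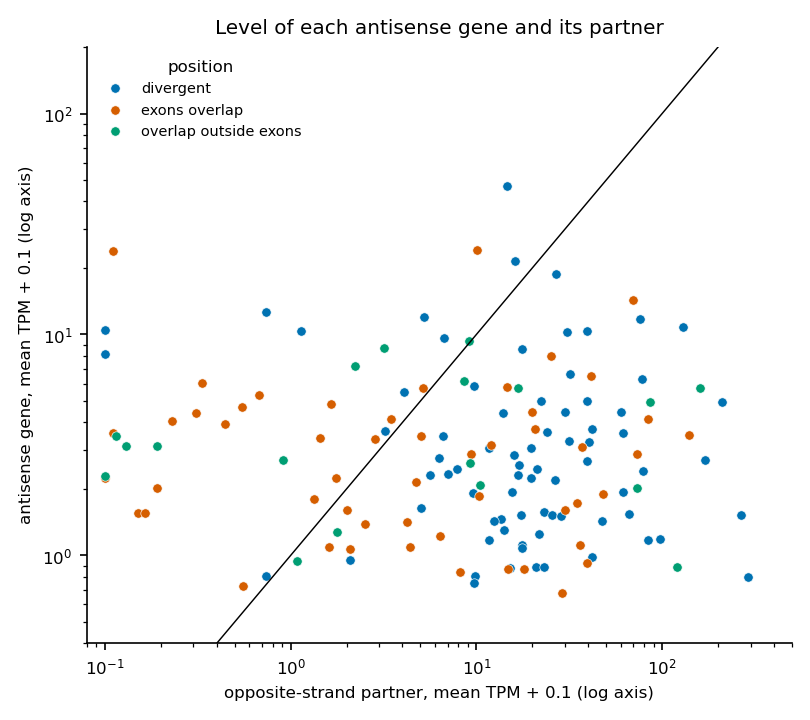
Mean level of each of the 145 antisense genes with a partner (vertical, TPM + 0.1) against that of its partner (horizontal, TPM + 0.1), both on log axes and coloured by position, with the line of equal levels. Most points lie to the right of the line, where the partner is higher, while most members with partners under 1 TPM lie to its left.

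At the low end stood members opposite strongly expressed genes. 4930488L21Rik, at 0.77 and 0.63 TPM, starts beside Gnao1, the alpha subunit of the most abundant brain G protein, at 309 and 271 TPM. 9430041J12Rik, at 1.85 and 1.01, faces the anion channel gene Ttyh1 at 275 and 254. Gm19522, at 0.91 and 0.67, overlaps, outside exons, Zbtb20, a transcription factor of CA1 neuron identity, at 139 and 102. A330084C13Rik (1.14 and 1.04 TPM) faces the ubiquitin ligase gene Nedd4l at 104 and 90.2, and Gm26588 (1.22 and 0.92 TPM) the endocannabinoid-degrading lipase gene Mgll at 90.4 and 77.8. In these 5 pairs the partner was between 74.1-fold and 430-fold higher.

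At the other end, most partners were themselves close to 0. 4933431E20Rik faced the gene Eps8l3, 1 of 2 opposite-strand genes that overlap it, listed at 0 and 0.02 TPM. The other gene was not compared. For Tmem147os and Sp3os the partners by the overlap rule, Gapdhs and Gm11084, were listed at 0 in both libraries. Their namesakes Tmem147 and Sp3, which also start on the other strand close by, were at 48.6 and 53.4 and at 25.8 and 25.4 TPM, so for these members the direction depends on which opposite-strand gene is taken. Gm49685, Gm17116, 2310002F09Rik, 4921504A21Rik and Gm15941 also faced genes with at most 0.06 TPM. Among the 122 partners with a mean of at least 1 TPM, 15 members were above the partner in both libraries. They included Tug1, 3.06-fold and 3.43-fold above Morc2a at 15.5 and 13.5 TPM, Zfas1, 1.34-fold and 1.33-fold above the helicase gene Znfx1, and B230334C09Rik, 2.85-fold and 1.96-fold above Lrrc40. Gm26782 stood 9.07-fold and 11.1-fold above Tep1, and Gm2415, at 7.70 and 6.45 TPM, 3.39-fold and 3.23-fold above the integrin gene Itga9.

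Several partners encode synaptic or neuronal proteins, and these pairs were picked for their role after their values were seen. Gm45441 (5.34 and 5.92 TPM) overlaps exons of the NMDA receptor subunit gene Grin2d, and Gm9885 (2.31 and 2.29 TPM) starts beside the neurotrophin receptor gene Ntrk3. A830092H15Rik (3.12 and 3.20 TPM) starts beside the synaptic adhesion gene Nlgn1, A730060N03Rik (2.20 and 1.46 TPM) beside the AMPA receptor auxiliary subunit gene Cacng2, and A530058N18Rik (3.92 and 3.16 TPM) beside the gap junction gene Gjd2. These genes are members themselves, so their levels lie within the members' range by definition. The first 3 differed little between libraries, and the other two were lower in replicate 2.

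Partner RNA read on the wrong strand could in principle appear as antisense counts, and 7 genes of the class allow a limit. At least 80% of their exonic bases lie within exons of a partner of 100 TPM or more. Their levels were between 0% and 0.188% of the partner's, with a median of 0.0647%, and 2 had 0 counts. Chn1os1, for example, was at 0.475 TPM opposite Chn1, a Rac GTPase-activating gene at 734. Against that, 3 members were at or under 1% of the level of their partner, and the lowest was 4930488L21Rik, at a ratio of 0.00249 and 0.00233 to Gnao1. In the second quantification, a further set of tables the authors deposited, the highest of the 7 genes was at 0.311% of its partner and 4930488L21Rik at a ratio of 0.00201, so there it did not exceed that level. Jund stood 5.43-fold and 7.90-fold above Gm11175, which lies inside its exons.

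Many members gave several transcripts. Of the 95 with more than 1, the leading transcript was the same in both libraries in 68 and accounted for over 50% of TPM in 63. The median share of the leader was 56.8%. Tug1-203 led Tug1 with 29.3% and 34.5%, followed by Tug1-205, of a single exon, with 27.4% and 26.7%. Zfas1-205, with 5 exons, held 60.8% and 65.5% of Zfas1, and 4 retained-intron transcripts held the rest. In 7 members a retained-intron transcript led by mean share, among them N4bp2os-202 with 81.0% and 95.6% and Gm17494-202 with 84.6% and 84.0%. In 9330159M07Rik and Gm6225, also of these 7, it led in only 1 library. Rab10os-203 held 38.8% and 38.7% of Rab10os, Dlx1as-202 81.2% and 86.9% of Dlx1as, and Dlx6os1-202 53.2% and 49.4% of Dlx6os1. Among the shares just listed the widest gap between libraries was in N4bp2os. Some other members differed far more. The share of 1500002C15Rik-202 was 100% and 13.5%, that of 6330418K02Rik-202 77.4% and 23.5%, and that of Zeb2os-201 32.8% and 70.0%.

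The libraries were then compared with each other. With 1 library against 1, a difference has no replicate check, and intervals cover counting error only. By deposited TPM 110 of 147 members were lower in replicate 2 (74.8%) and 36 higher, while 65.4% of the 14410 genes with at least 100 counts that gave a ratio were lower. Members had a median log2 ratio (replicate 2 over replicate 1) of -0.22, and all those genes of -0.08, a difference of -0.14. The split depends on the scaling: 70.1% of members were lower on TMM-scaled counts and 90.5% on spike-in scaled counts, where 46.0% and 87.0% of all genes were. Relative to the median of all genes the members' median was -0.17 on TMM, DESeq2 and spike-in scaling and -0.12 in the second quantification. Members below the all-gene median numbered 98 by deposited TPM, 108 on each scaling of the counts and 93 in the second quantification. Some markers of neighbouring tissue differed as well. Summed choroid plexus markers were at 26.9 and 59.2 TPM, of which Ttr alone made up 23.5 and 55.1. The other choroid plexus markers, Kl and Folr1, were at 3.43 and 3.38 and at 0 and 0.760. Summed thalamus markers were at 39.4 and 27.1, neocortex markers at 60.7 and 58.0 and striatum markers at 19.7 and 23.8. The part of these markers in the members' ratios was not tested.

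Other RNA classes put this in proportion. The median log2 ratio was -0.07 over 12966 protein-coding genes, -0.12 over the 123 partners that gave a ratio, -0.24 over 218 lincRNA genes and -0.91 over 427 gene models of the class TEC, which await experimental testing. Antisense members thus lay near lincRNA genes, below protein-coding genes and well above TEC models. By position the medians were -0.22 for divergent members, -0.11 for overlapping exons and -0.44 for overlap outside exons. The order of divergent members and overlapping exons is not settled. Their medians were -0.12 and -0.15 on TMM and DESeq2 scaling, -0.32 and -0.35 on spike-in scaling and -0.15 and -0.19 in the second quantification. Members with a single exon had a median of -0.26 (n = 27) and those with 2 or more exons -0.18 (n = 120).

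**Figure D4:**
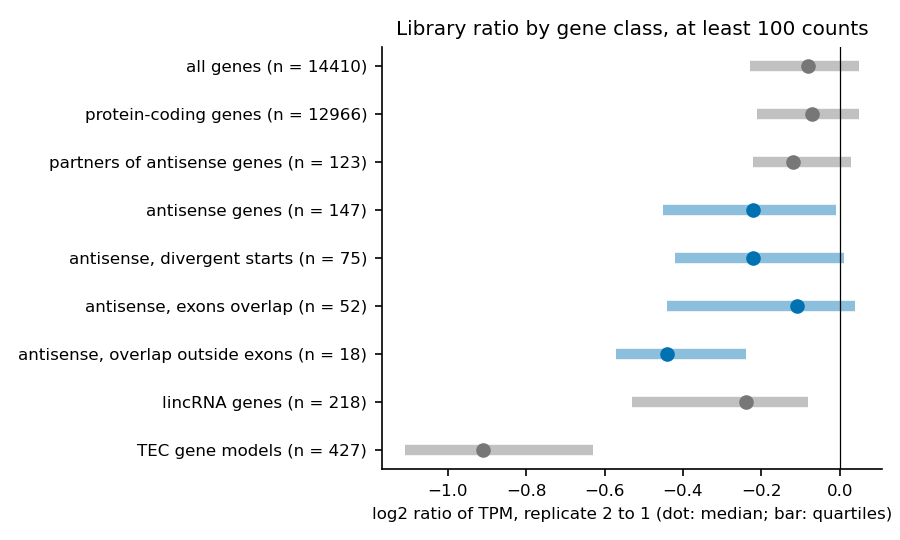
Log2 ratio of TPM in replicate 2 to replicate 1 by gene class, for genes with at least 100 counts, with the median as a dot and the quartiles as a bar. Antisense genes (blue) have a median of -0.22, between protein-coding genes at -0.07 and TEC gene models at -0.91.

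The medians by class show that the lower level in replicate 2 was shared by several noncoding classes. Across 123 pairs, which share both libraries, Pearson's r between the log2 ratios of member and partner was 0.0241. Both genes were lower in 64 pairs, the member alone in 30, the partner alone in 20, both were higher in 8, and 1 pair had a tie.

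Differences of 2-fold were few. At least 2-fold lower in replicate 2 were 5 members, against 1.69% of all genes tested, and at least 2-fold higher were 0 members, against 0.187%. At 1.5-fold the counts were 17 lower, where 5.73% of all genes were called, and 2 higher, where 0.874% were. TMM and DESeq2 scaling each gave 4 lower and 0 higher (1.15% and 0.153% of all genes), spike-in scaling 5 and 0 (2.05% and 0.118%), and the second quantification 5 and 0 (1.5% and 0.254%). The counting interval of the ratio included 1 for 100 members, lay under 1 for 44 and above 1 for 3. Such intervals were not computed for all genes, whose median ratio was 0.947. These counts therefore have no share over all genes beside them and are not a result about antisense genes.

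Gm15941 (chromosome 15, 37421134 to 37433414, minus strand) was at 3.29 and 1.09 TPM. Its ratio was 0.331, with a 95% counting interval of 0.210 to 0.513. It lies on the same strand inside Ncald, a neuronal calcium sensor gene at 163 and 164 TPM, with 0 shared exonic bases. Gm49685 (chromosome 15, 20449119 to 20979940, plus strand) was at 5.21 and 1.79, with a ratio of 0.344 (0.240 to 0.486). It overlaps the cadherin gene Cdh12 on its own strand, at 11.7 and 9.25 TPM, and shares 198 exonic bases with it. The values of Ncald and Cdh12 cover their annotated transcripts only. The part of these neighbours in the 2 ratios was not tested. Gm17116 was at 4.91 and 1.86 TPM, which gave a ratio of 0.379 (0.266 to 0.533), and AC165951.2 at 2.40 and 1.03, which gave 0.429 (0.280 to 0.649).

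A230077H06Rik, whose nearest start lies 4 bases from that of Vstm2b, was at 6.25 and 2.52 TPM and had a ratio of 0.403 (0.320 to 0.507). Its counts, 179 and 134, differed less, with a ratio of 0.634 after scaling to library size. Counts moved between its transcripts: the short A230077H06Rik-204 had 40 and 15, and the longest, A230077H06Rik-201, 100 and 108. Vstm2b was at 29.7 and 29.9 TPM. The TPM of this gene therefore differed more than its counts, and in the second quantification it was at 13.5 and 7.94.

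Of these 5 members, 3 overlap a gene on their own strand, as do 11 of all 147. For AC165951.2 that gene, AC174471.1, was listed at 0 in both libraries. Those 11 had a median log2 ratio of -0.45, the 17 with a same-strand gene ending up to 5000 bases upstream -0.24, and the other 119 -0.19. The grouping was made after the ratios were seen, and its part in the difference was not tested. The largest values in the other direction were at Gm42067 (3.69 and 6.06 TPM, ratio 1.64, 1.13 to 2.40), Gm10687 (0.50 and 0.80 TPM, ratio 1.60, 1.07 to 2.43) and Gm10516 (1.18 and 1.66 TPM, ratio 1.41, 1.01 to 1.96). The direction of the last pair is not settled, since the log2 ratio of Gm10687 was -0.11 in the second quantification, and that of Gm10516 was -0.07 on spike-in scaling and -0.01 in the second quantification.

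**Figure D5:**
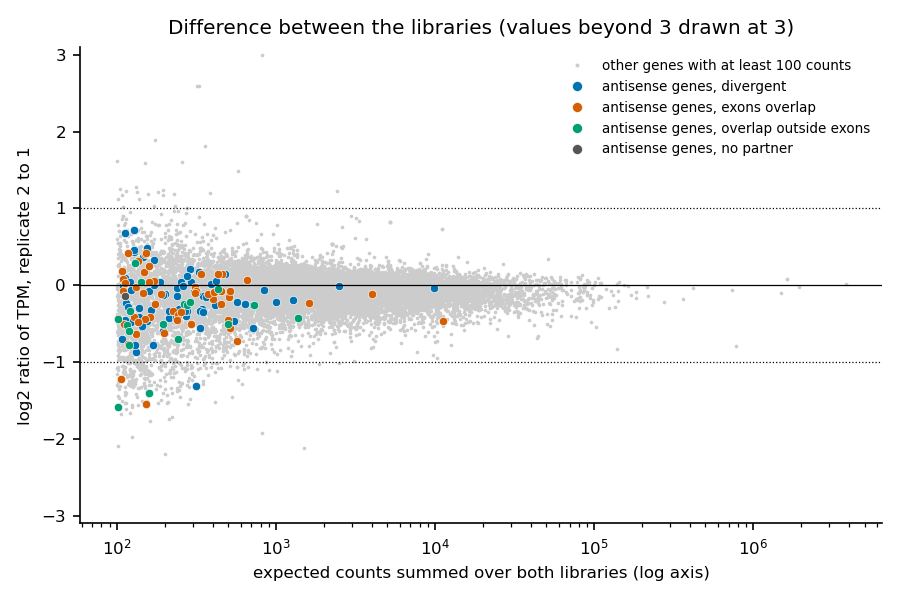
Log2 ratio of TPM in replicate 2 to replicate 1 (vertical, values beyond 3 drawn at 3) against expected counts summed over both libraries (log axis), with members coloured by position and other genes with at least 100 counts in grey. Dotted lines mark 2-fold, and the 5 members under the lower line lie toward the left, at 101 to 313 counts.

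The plot of ratio against counts shows that the spread narrows with depth. Among the members with the most counts, Tug1 had a ratio of 0.972 (0.934 to 1.01), and 6330403L08Rik, with 1115 and 1383 counts, 0.993 (0.917 to 1.08). B230334C09Rik, with 5890 and 5327 counts, had 0.724 (0.698 to 0.752), so its difference was larger than counting error, as was that of Dlx6os1 with 0.742 (0.666 to 0.825).

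The second quantification was set against the first over all members. Its TPM was higher for 143 of the 147 members, with a median log2 difference of 0.76 against 0.71 over all genes. Across members Pearson's r of log2 TPM was 0.944, over genes that share the same libraries. In the second quantification 34 members were higher by over 2-fold, among them Zfas1, Tmem147os and A830082K12Rik. No share over all genes stands beside that count, so it is not a result about antisense genes. Gm49685 and B130046B21Rik were lower there by over 2-fold, Gm49685 at 1.47 and 0.595 TPM. Gm3892 and Gm10593 had equal values in the first quantification, 0.64 and 0.58 TPM, and transcripts Gm3892-202 and Gm10593-201, both of 3539 bases, differ at 0 bases, so their reads cannot be assigned to either. In the second quantification they were at 3.33 and 1.86 TPM in the mean. Gm26782 was at 39.7 and 29.7 TPM there, against 11.1 and 9.51, and Gm10687 at 2.88 and 2.67. The levels of these 6 members are therefore uncertain beyond the differences between libraries, and levels of other members also depend on the quantification.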

How the data were processed

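Total RNA libraries of 1 group (replicates 1 and 2) were analysed on mm10 with the GENCODE M21 annotation, per the labels and the deposited notes. The authors deposited gene and transcript tables of expected counts and TPM, with each transcript's percent of its gene's TPM, in the RSEM format and made from transcriptome alignments, and a second transcript table in the kallisto format, with estimated counts and TPM, per the file headers and the deposited notes. The aligner is not given in the sources used here. TPM was used as deposited, and the second table was summed per gene.

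Members and lists were chosen with earlier results of these data known. Named genes were the 20 of highest mean TPM, the 5 largest library ratios each way, symbols ending in os, small-RNA hosts, list members and the extremes against the partner, between quantifications and at the minimum. No ratio was taken with under 3 counts in a library. Counting intervals are exact Clopper-Pearson 95% intervals, scaled to TPM. TMM factors came from edgeR 4.0.16 and size factors from DESeq2 1.42.0, in R 4.3.3, on expected counts rounded to whole numbers, for genes with at least 20 counts. Tables were read with pandas 2.3.3 and numpy 2.4.6 in Python 3.11.15, intervals came from scipy 1.17.1, and figures from matplotlib 3.10.9. With 1 group there is no test between groups and no p-value. The ratio rule was tested on simulated data. Alternatives were other minimums, folds, scalings, pseudocounts and windows, the second quantification and each replicate alone.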

Additional observations from a re-analysis of the deposited data

How the results depend on the processing

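The number of members was 253 with a minimum of 50 counts and 73 with 200, 201 by the second quantification, and 146 to 153 from a single replicate. Members at least 2-fold lower numbered 1 with a minimum of 200 counts and 17 at 1.5-fold, and 4 or 5 on TMM, DESeq2 and spike-in scaling and in the second quantification. At least 2-fold higher were 0 under these scalings, and 2 at 1.5-fold. The median log2 ratio was -0.15 on TMM and DESeq2 scaling, -0.35 on spike-in scaling and -0.17 in the second quantification, and kept its sign. Members above their partner in mean TPM numbered 40, 18 with protein-coding partners of at least 1 TPM, and 37 to 39 from a single replicate. The median log2 ratio of member to partner was -2.18, -1.88 with a pseudocount of 1, -2.26 in the second quantification and -2.24 to -2.13 from a single replicate. Divergent members numbered 65 and 79 with windows of 500 and 2000 bases, and 38 when only starts lying apart were counted, a setting added after seeing the data.

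Of 120 values of 30 named members under alternatives, 100 stayed within the counting interval of the deposited TPM ratio, and 23, from 10 members, had the other sign. For 19 of these 23 the interval of the deposited ratio holds 1, A930005H10Rik and 2310009A05Rik having the other sign under all 4 alternatives. The other 4 were of members whose interval excludes 1, and the cause was not tested. Gm10516 had a log2 ratio of -0.07 on spike-in scaling and -0.01 in the second quantification, Gm10687 -0.11 and 4933431E20Rik 0.04 in the second quantification. No paired analysis was possible because there is 1 group, and leaving out a replicate gives no library ratio. Members with about 100 counts have wide intervals, and a median interval spans 1.79-fold from its lower to its upper bound.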
